A study of Homo sapiens with 6 samples.

Results

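The genes described here are 35 enzymes, transporters and regulators of glycolysis, lactate and pyruvate handling and the pentose phosphate pathway, out of 20033 protein-coding genes of chromosomes 1 to 22, X and Y. They were taken from a list of named genes, and each was described by the ChIP-seq peaks that lay inside its hg38 gene body or within 3 kb of it. The cells were K562, a human chronic myeloid leukemia line, made to overexpress Flag-PLAG1-S, a Flag-tagged short form of the zinc finger factor PLAG1, together with USF2, a basic helix-loop-helix factor. Libraries came from clone 4 and clone 5 of these cells, 1 anti-Flag, 1 anti-USF2 and 1 input library each, and the authors called peaks in each of the 4 immunoprecipitated libraries against the merged inputs. Each clone is a single overexpressing line, both carry both transgenes, and no library of cells without them enters the lists, so the peaks describe occupancy with both factors in excess.

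Glycolysis splits glucose into pyruvate in the cytosol, with hexokinase, phosphofructokinase and pyruvate kinase as its controlled steps, and the pentose phosphate pathway branches off at glucose-6-phosphate to give NADPH and ribose. Cells short of oxygen or growing fast send pyruvate to lactate, and pyruvate dehydrogenase kinases hold it back from the mitochondrion. USF factors bind the E-box CACGTG, an element long studied at glucose-responsive genes. There paired E-box-like hexamers form the carbohydrate response element, which has been studied at TXNIP and its relative ARRDC4, among other genes. PLAG1 binds a G-rich core followed at a short distance by a run of G.

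The promoter windows that carry the results are printed first, from 250 bases before to 50 after a gene start (RefSeq, GRCh38.p14), each read 5′ to 3′ on the strand of its gene. The first 6 are the windows met by the clone 4 interval of a USF2 peak found in both clones. They run from the highest to the lowest clone 4 USF2 enrichment of the gene. The last 2 are those of TXNIP and ARRDC4. Capitals mark CACGTG, the PLAG1 consensus (GGGGC or GAGGC, then 6 to 8 bases, then GGG, or its reverse complement) and, in TXNIP, 2 hexamers of the form CACGNG or CNCGTG set 5 bases apart.
ENO1, chr1:8878637-8878936, minus strand: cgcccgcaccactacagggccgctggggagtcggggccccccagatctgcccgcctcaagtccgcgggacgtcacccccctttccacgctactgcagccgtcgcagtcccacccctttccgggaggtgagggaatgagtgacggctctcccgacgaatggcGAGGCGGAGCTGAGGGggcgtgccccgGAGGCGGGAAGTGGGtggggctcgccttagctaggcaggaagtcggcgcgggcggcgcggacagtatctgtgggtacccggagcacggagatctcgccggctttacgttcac
PDK2, chr17:50095101-50095400, plus strand: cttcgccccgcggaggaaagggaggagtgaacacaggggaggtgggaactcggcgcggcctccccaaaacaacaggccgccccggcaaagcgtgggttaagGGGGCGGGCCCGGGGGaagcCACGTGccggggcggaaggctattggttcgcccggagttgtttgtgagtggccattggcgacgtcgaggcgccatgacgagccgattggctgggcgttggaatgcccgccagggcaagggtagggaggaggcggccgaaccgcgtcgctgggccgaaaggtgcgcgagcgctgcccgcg
GAPDH, chr12:6535014-6535313, plus strand: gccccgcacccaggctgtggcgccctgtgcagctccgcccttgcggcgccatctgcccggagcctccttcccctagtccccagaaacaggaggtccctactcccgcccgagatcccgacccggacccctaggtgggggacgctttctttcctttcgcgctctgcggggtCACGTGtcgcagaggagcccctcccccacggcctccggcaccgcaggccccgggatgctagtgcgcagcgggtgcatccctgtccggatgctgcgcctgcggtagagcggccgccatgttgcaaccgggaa
RPIA, chr2:88691423-88691722, plus strand: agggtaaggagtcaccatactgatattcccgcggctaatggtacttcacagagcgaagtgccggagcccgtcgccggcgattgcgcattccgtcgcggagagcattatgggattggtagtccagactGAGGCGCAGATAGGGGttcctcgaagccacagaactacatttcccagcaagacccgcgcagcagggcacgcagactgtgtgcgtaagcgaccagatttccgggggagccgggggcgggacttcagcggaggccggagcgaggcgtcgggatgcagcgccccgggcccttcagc
TPI1, chr12:6867855-6868154, plus strand: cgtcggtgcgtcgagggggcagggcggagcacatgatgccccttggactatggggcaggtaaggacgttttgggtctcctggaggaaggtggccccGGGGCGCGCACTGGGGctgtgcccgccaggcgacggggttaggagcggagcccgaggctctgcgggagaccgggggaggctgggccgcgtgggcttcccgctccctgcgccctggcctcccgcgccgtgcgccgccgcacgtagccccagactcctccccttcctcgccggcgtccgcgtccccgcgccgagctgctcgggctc
PGK1, chrX:78103998-78104297, plus strand: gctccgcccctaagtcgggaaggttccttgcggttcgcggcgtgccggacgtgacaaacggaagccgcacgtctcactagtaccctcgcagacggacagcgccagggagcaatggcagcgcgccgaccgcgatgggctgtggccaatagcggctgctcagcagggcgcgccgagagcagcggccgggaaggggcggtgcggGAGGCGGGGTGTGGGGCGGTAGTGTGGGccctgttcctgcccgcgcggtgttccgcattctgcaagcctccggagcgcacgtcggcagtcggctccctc
TXNIP, chr1:145996530-145996829, minus strand: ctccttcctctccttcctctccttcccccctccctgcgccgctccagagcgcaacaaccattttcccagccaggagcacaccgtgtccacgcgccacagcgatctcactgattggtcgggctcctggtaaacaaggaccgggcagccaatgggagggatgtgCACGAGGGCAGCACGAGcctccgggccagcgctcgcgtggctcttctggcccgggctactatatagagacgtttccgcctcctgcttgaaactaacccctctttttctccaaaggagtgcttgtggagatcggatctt
ARRDC4, chr15:97960453-97960752, plus strand: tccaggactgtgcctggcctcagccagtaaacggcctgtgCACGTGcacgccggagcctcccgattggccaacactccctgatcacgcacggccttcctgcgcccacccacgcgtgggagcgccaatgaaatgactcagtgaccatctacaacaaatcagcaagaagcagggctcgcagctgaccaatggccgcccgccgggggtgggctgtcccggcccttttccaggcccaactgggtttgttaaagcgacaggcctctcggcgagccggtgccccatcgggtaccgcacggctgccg

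Parts of 2 further windows were chosen after their values were seen, because each holds a pair of CACGTG copies, in capitals, and a USF2 summit of clone 4 within 2 bp of the centre of one of them. The HK2 stretch runs from base -210 to -131 and the LDHA stretch from -200 to -71, counted from the gene start.
HK2, chr2:74834960-74835039, plus strand: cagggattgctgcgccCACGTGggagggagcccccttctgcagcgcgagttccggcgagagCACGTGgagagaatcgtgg
LDHA, chr11:18394363-18394492, plus strand: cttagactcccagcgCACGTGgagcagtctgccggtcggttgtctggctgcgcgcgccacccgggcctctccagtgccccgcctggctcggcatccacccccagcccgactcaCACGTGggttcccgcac

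The 4 lists held 37574 PLAG1-S peaks in clone 4, 29889 in clone 5, 9338 USF2 peaks in clone 4 and 4369 in clone 5. Each peak carries a fold enrichment, the number of fragments over its summit plus 1 divided by the local background plus 1, and the fragment number was recovered for 99.9% or more of the peaks in each list. The median summit held 20.5 to 24 fragments, so that most single peaks rest on few fragments. The weakest q-value was 0.0099 for PLAG1-S and 0.0494 for USF2, and all 4 lists share the merged inputs. Reproducible means here that the clone 4 interval shared 1 bp or more with a clone 5 peak for that factor. Co-bound means that the edges of a reproducible PLAG1-S peak lay within 100 bp of a reproducible USF2 peak. With 2 clones per factor no test of a difference between groups was made, and intervals on fragment numbers, exact Poisson at 95%, cover counting error only.

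PLAG1-S was found at most of these genes and USF2 at few of them. A reproducible PLAG1-S peak lay at 27 of the 35 genes (77.1%), beside 52.0% of all protein-coding genes, and within 1 kb of a gene start at 26 of them (74.3%), beside 40.5%. USF2 was reproducible at 7 genes (20%), ENO1, GAPDH, PDK2, PGAM1, PGK1, RPIA and TPI1, beside 10.3% of coding genes. Co-bound peaks lay at 6 of those 7 genes (17.1%, beside 9.98%), PGAM1 being the exception, and all 6 lay within 1 kb of a gene start, where 7.24% of coding genes had one. Reproducible USF2, whatever PLAG1-S did, lay within 1 kb of a start at the same 6 genes, beside 7.32%. The median gene body was 21448 bp for the listed genes and 24130 bp for all coding genes. The part of gene length, or of the number of annotated starts, in these shares was not tested.

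Taken list by list, 32 of the 35 genes had a PLAG1-S peak in clone 4 (64.0% of coding genes did), 28 in clone 5 (58.3%), 21 a USF2 peak in clone 4 (25.3%) and 7 in clone 5 (13.6%). Of the genes, 6 had a peak in every list, 15 in 3 of them, 7 in 2, 5 in 1 and 2 in none. Those in none were HK3, a hexokinase mainly of blood cells, and PDK3, a pyruvate dehydrogenase kinase, while 31.2% of coding genes had no peak in any list. Members with a single list were SLC2A3, PFKM, RPE, TKT and TXNIP, each with PLAG1-S in clone 4 alone.

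**Figure D1:**
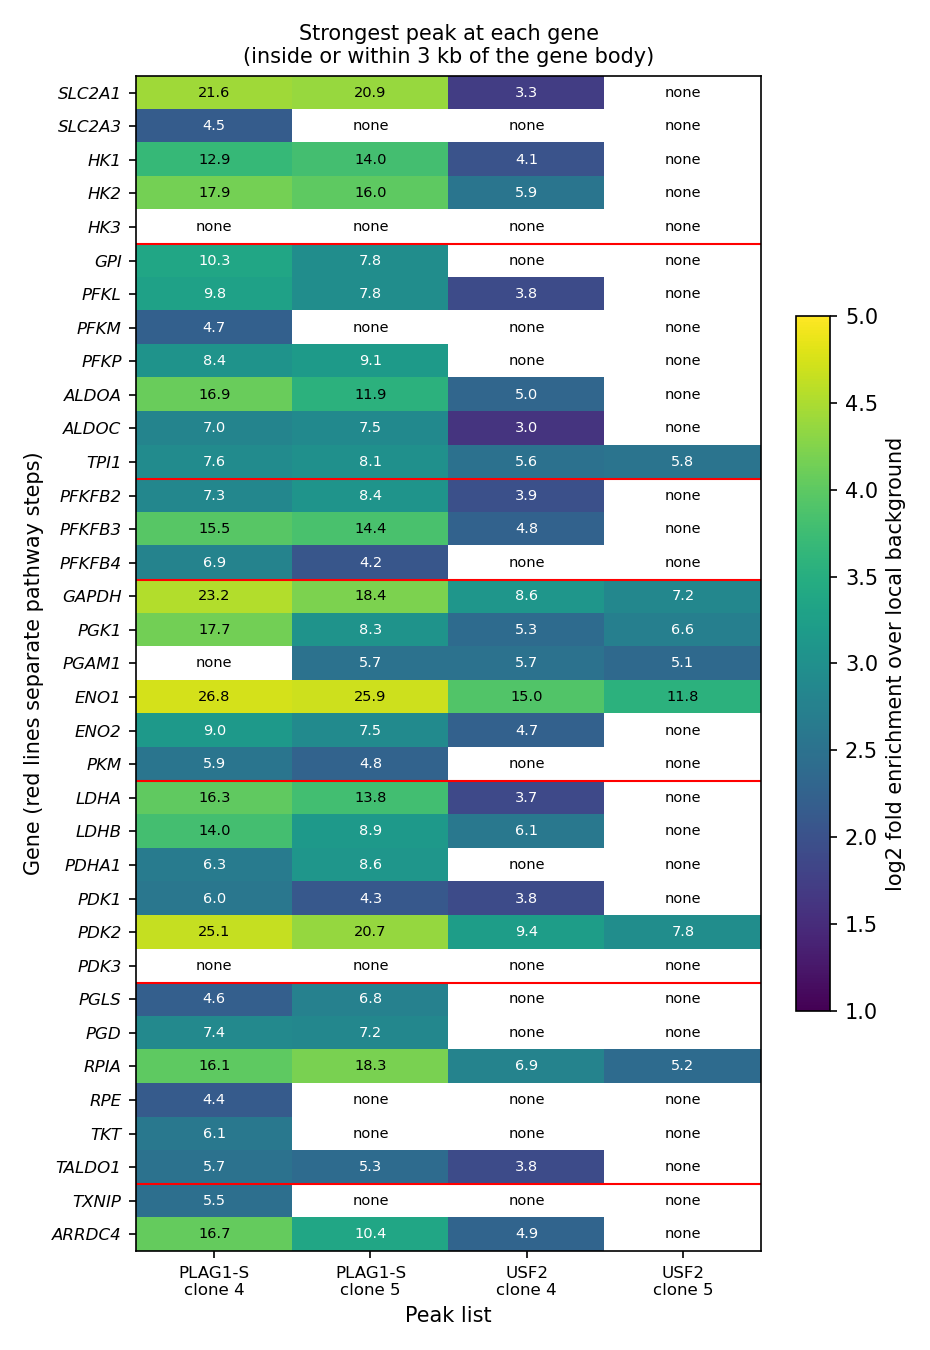
Fold enrichment over local background of the strongest peak at each gene (rows, grouped by pathway step) in each of the 4 lists (columns), with the color on a log2 scale and the fold printed in the cell. ENO1, PDK2 and GAPDH hold the 3 highest PLAG1-S values of clone 4 and the 3 highest USF2 values of both clones, and the clone 5 USF2 column is empty for 28 genes. The strongest peaks of a gene in different lists need not be the same site, as at PFKL and TALDO1.

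The later steps of glycolysis, from glyceraldehyde-3-phosphate to pyruvate, held 4 of the 7 reproducible USF2 genes among their 6 members. Reproducible USF2 lay at 10.3% of coding genes. At −log10 q values of 10 or more in every list, ENO1 and GAPDH alone of these 6 kept reproducible USF2. ENO1, the widely expressed enolase, had the strongest PLAG1-S peak of all 35 genes, with a fold of 26.8 in clone 4 (147 fragments, interval 124 to 173) and 25.9 in clone 5 (136, 114 to 161). These peaks ranked in the top 1.47% and 1.1% of their lists. The intervals of the clones overlap. The clone 4 interval, chr1:8877827-8879619, covers the gene start on the minus strand, and its summit lies 579 bp upstream, 430 bp from an end of the antisense gene ENO1-AS1, where the nearest gene end is not its own. USF2 reached 15.0 there in clone 4 (82 fragments, 65.2 to 102) and 11.8 in clone 5 (62, 47.5 to 79.5), with a summit 16 bp from that of PLAG1-S. A second USF2 peak lay 350 bp inside the gene, at 7.57 in clone 4 and 4.45 in clone 5. No other gene of the list had a pair of USF2 peaks that both clones shared.

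GAPDH, which oxidizes glyceraldehyde-3-phosphate, carried a PLAG1-S peak of 23.2 in clone 4 (122 fragments) and 18.4 in clone 5 (83 fragments). Its USF2 peak reached 8.57 (42 fragments) and 7.20 (34 fragments), with summits 99 and 100 bp upstream of the start, 20 and 21 bp from the centre of the single CACGTG printed above. PLAG1-S was also found in both clones further upstream, at 1285 and 1314 bp, with folds of 10.8 and 11.1. GAPDH was thus occupied by both factors at the start and by PLAG1-S alone further up.

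PGK1, phosphoglycerate kinase, is the gene at which the clones differed most among the co-bound genes. Its PLAG1-S fold was 17.7 in clone 4 (66 fragments, 51.0 to 84.0) and 8.33 in clone 5 (29, 19.4 to 41.6), and these intervals do not overlap. USF2 went the other way, at 5.26 (19 fragments, 11.4 to 29.7) and 6.65 (24, 15.4 to 35.7), with intervals that overlap. These differences were not tested, and library depth is not in the lists. The clone 4 summits lay 5 bp apart, 77 and 82 bp upstream of the start, whereas the clone 5 summits lay 255 and 351 bp upstream.

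PGAM1, phosphoglycerate mutase, was the only gene of the list with reproducible USF2 and no reproducible PLAG1-S. That USF2 peak lay 4715 bp past the start, inside the gene near its far end, at 4.65 in clone 4 (17 fragments) and 5.14 in clone 5 (18 fragments), low in both. Upstream, at 1398 and 1386 bp, clone 4 had USF2 at 5.69 and clone 5 had PLAG1-S at 5.68, each without its counterpart. The remaining genes of this stretch had reproducible PLAG1-S and no reproducible USF2. ENO2, the neuronal enolase, stood at 8.96 and 7.50 with USF2 at 4.73 in clone 4 only, 267 bp from an end of LRRC23, and PKM, pyruvate kinase, stood at 5.86 and 4.82.

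Among the 7 genes of the upper part of the pathway, from glucose-6-phosphate to triose phosphate, 6 had reproducible PLAG1-S and 1, TPI1, reproducible USF2. The shares of coding genes were 52.0% and 10.3%. TPI1, triose phosphate isomerase, had the lowest PLAG1-S folds of the co-bound genes. At its start PLAG1-S stood at 6.55 in clone 4 (24 fragments) and 5.14 in clone 5 (18), and USF2 at 5.63 (21) and 5.80 (24). The clone 4 summits were 18 bp apart, but the clone 5 USF2 summit lay nearer to the other annotated start, 203 bp past it. The strongest PLAG1-S peaks counted for TPI1, 7.64 and 8.06, lay outside the gene, past its far end, 631 and 688 bp from an end of SPSB2. ALDOA, the aldolase of muscle and red cells, had PLAG1-S at 16.9 and 11.9 and a clone 4 USF2 peak of 5.02. GPI stood at 10.3 and 7.82 in clones 4 and 5, with summits 5737 and 5678 bp upstream of the start used for its promoter window. Its peaks 438 and 496 bp past that start stood at 5.05 and 4.70. PFKL stood at 9.78 and 6.78 upstream of its start and at 3.79 and 7.78 well inside the gene. PFKP stood at 8.35 and 9.07, and ALDOC at 7.02 and 7.46 with its summits 447 and 458 bp from an end of SPAG5. PFKM, the muscle phosphofructokinase, had a clone 4 PLAG1-S peak of 4.70 alone.

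Glucose entry and its first phosphorylation are served by 5 of the genes, of which 3 had reproducible PLAG1-S and none reproducible USF2. Of coding genes, 52.0% and 10.3% did. SLC2A1, which encodes the glucose transporter GLUT1, had 8 PLAG1-S peaks in clone 4 and 6 in clone 5. The strongest lay 22330 bp inside the gene at 21.6 in clone 4 (131 fragments) and 20.9 in clone 5 (116), and another lay 639 bp past the start at 14.8 and 18.0. The single USF2 peak, in clone 4, reached 3.31. HK2, the hexokinase typical of proliferating and tumor cells, held 1 PLAG1-S peak in each clone, at 17.9 (90 fragments) and 16.0 (76), with summits 173 and 185 bp upstream. Clone 4 USF2 stood there at 5.88 with 30 fragments, the most of any USF2 peak at these genes without a match in clone 5. HK1, the housekeeping hexokinase, stood at 12.9 and 14.0 with USF2 at 4.06 in clone 4, and the transporter gene SLC2A3 had a clone 4 PLAG1-S peak of 4.48 alone.

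The 3 enzymes that make and break fructose-2,6-bisphosphate, the activator of phosphofructokinase, all had reproducible PLAG1-S, beside 52.0% of coding genes. PFKFB3 led with 15.5 and 14.4 at a peak 18894 bp inside the gene and had 2 USF2 peaks in clone 4, at 4.78 and 4.22. PFKFB2 stood at 7.26 and 8.41, with USF2 at 3.95 in clone 4, 102 to 140 bp from an end of YOD1. PFKFB4 stood at 6.94 and 4.20 and had no USF2 peak.

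Of the 6 genes that decide the fate of pyruvate, PDK2 alone was co-bound, beside 9.98% of coding genes. PDK2, a pyruvate dehydrogenase kinase, had PLAG1-S at 25.1 in clone 4 (105 fragments, 85.9 to 127) and 20.7 in clone 5 (83, 66.1 to 103), with summits 123 and 121 bp upstream of a start. USF2 stood at 9.37 (46 fragments) and 7.76 (41 fragments). The clone 4 summits of the factors were 10 bp apart, and the CACGTG of this window lies 6 bp from the clone 4 USF2 summit and 45 bp from that of clone 5. A PLAG1 consensus ends 4 bases before this E-box in the printed window. LDHA, the lactate dehydrogenase subunit of glycolytic tissue, had PLAG1-S at 16.3 (94 fragments) and 13.8 (63), and clone 4 USF2 at 3.68 (28 fragments over a local background of 6.89). LDHB, the heart subunit, stood at 14.0 and 8.89 with clone 4 USF2 at 6.05, the highest fold among the listed genes' USF2 peaks that clone 5 lacked. PDHA1, the catalytic subunit of pyruvate dehydrogenase, reached 6.32 and 8.61 with no USF2, and PDK1 reached 6.0 and 4.27 with a clone 4 USF2 peak of 3.79 that lay 57699 bp inside the gene.

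In the pentose phosphate pathway 4 of 6 genes had reproducible PLAG1-S and RPIA alone was co-bound, beside 52.0% and 9.98% of coding genes. RPIA, ribose-5-phosphate isomerase, had PLAG1-S at 16.1 in clone 4 (84 fragments) and 18.3 in clone 5 (67). USF2 stood at 6.88 (26 fragments) and 5.25 (19 fragments). Its summits in clone 4 were 119 bp apart, the widest gap of the 6 co-bound genes, and both factors peaked past the start, USF2 at 158 and 171 bp. Among the enzymes that produce NADPH and its intermediate, PGLS stood at 4.64 and 6.77 and PGD at 7.40 and 7.24, with PLAG1-S alone. TALDO1, transaldolase, had PLAG1-S at 4.54 and 5.28 near its start and at 5.66 and 5.24 inside the gene, with clone 4 USF2 peaks of 3.77 and 3.39. RPE and TKT, transketolase, had PLAG1-S in clone 4 alone, at 4.42 and 6.06.

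The arrestin-domain genes TXNIP and ARRDC4, whose products hold back glucose uptake, differed from each other in these lists. At TXNIP the only peak of any list was PLAG1-S in clone 4, with a fold of 5.52 (43 fragments over a background of 6.98), 108 bp upstream, and neither clone had USF2. ARRDC4 had PLAG1-S in both clones, at 16.7 (67 fragments, 51.9 to 85.1) and 10.4 (39, 27.7 to 53.3), and USF2 in clone 4 at 4.90 (19 fragments). The 3 ARRDC4 summits lay 203, 196 and 214 bp upstream of the start, and the clone 4 USF2 summit was 6 bp from the centre of the CACGTG in its window.

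In 14 of the 35 genes USF2 was called in clone 4 and not in clone 5, beside 13.5% of coding genes. They were SLC2A1, HK1, HK2, PFKL, ALDOA, ALDOC, PFKFB2, PFKFB3, ENO2, LDHA, LDHB, PDK1, TALDO1 and ARRDC4. Their 16 clone 4 peaks were low, from 3.05 to 6.05 with a median of 4.00, on 14 to 30 fragments. Only that at HK2 had a −log10 q of at least 10. The clone 5 USF2 list is also the shorter one, with 4369 peaks against 9338, and the part of list length in these calls was not tested. Of the 16, 8 had a summit within 100 bp of a clone 4 PLAG1-S summit.

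Over the 58 PLAG1-S peaks at these genes, the log2 ratio of the clone 5 to the clone 4 fold had a median of -0.08 (quartiles -0.48 and 0.17), against -0.17 over all 21332 reproducible PLAG1-S peaks. Over the 8 USF2 peaks the median was -0.26, against -0.28 over 2358. The folds of clone 5 were lower at 34 of the 58 (58.6%, beside 66.5% of all) and at 5 of the 8 (62.5%, beside 79.0%). A fold more than 2 times apart was found at 5 of the 58, 2 at SLC2A1 and 1 each at PFKFB3, PFKL and PGK1 (8.62%, beside 3.37% of all), and at none of the 8. Of the 86 clone 4 PLAG1-S peaks at the listed genes 67.4% were met by a clone 5 peak, beside 57.1% over the whole list, and of the 26 clone 4 USF2 peaks 30.8%, beside 25.8%. In the other direction 85.5% of 69 PLAG1-S and 88.9% of 9 USF2 peaks of clone 5 were met, beside 72.8% and 56.4%.

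More of the peaks lay at gene starts than over all coding genes. Summits within 1 kb of a start made up 51 of 86 PLAG1-S peaks in clone 4 (59.3%) and 43 of 69 in clone 5 (62.3%), beside 42.2% and 46.0% of the peaks at all coding genes. For USF2 they made up 17 of 26 in clone 4 (65.4%) and 7 of 9 in clone 5 (77.8%), beside 44.3% and 49.0%. Distances were taken to the nearest annotated start of a gene, and some genes have several, HK1 7 and PFKP 4. The listed genes had 58 promoter windows over 33 genes. Coding genes had 1851 with CACGTG and 20347 without it, over 15842 genes. The part of start number in these shares was not tested. The median fold of the listed genes' peaks was 5.65 (clone 4) and 5.41 (clone 5) for PLAG1-S, with 4.76 and 5.80 for USF2, against 5.23, 5.00, 4.21 and 4.52 over all peaks of the same lists. At the 6 co-bound genes the clone 4 summits of PLAG1-S and USF2 were 5 bp (PGK1), 10 bp (PDK2), 16 bp (ENO1), 18 bp (TPI1), 39 bp (GAPDH) and 119 bp (RPIA) apart, beside a median of 15 bp over all 2078 co-bound peaks. The clone 4 USF2 summit lay 355 bp from an end of a noncoding neighbor at RPIA, 446 bp at ENO1, 565 bp at PDK2 and 758 bp at GAPDH. At RPIA, PDK2 and GAPDH it was nearer to the enzyme gene's own start (158, 133 and 99 bp), and at ENO1 it was farther from it (595 bp). With clone 4 considered by itself, 13 of its 26 USF2 peaks at these genes (50%) had a PLAG1-S summit within 100 bp, beside 45.8% of the 9144 on the chromosomes used.

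Of the 33 listed genes with a promoter window, 8 (24.2%) held CACGTG, searched on both strands, namely ALDOA, ALDOC, ARRDC4, GAPDH, HK2, LDHA, PDK2 and PFKFB3, against 10.9% of 15842 coding genes with a window. HK2 and LDHA held 2 copies each. Counted by window, 13.8% of 58 held the E-box, against 7.26% of all 35116 windows of the same length, those of noncoding genes included. Of the coding windows alone, 1851 held it and 20347 did not. Each of these 8 windows was met by a reproducible PLAG1-S peak, as were 69.9% of the coding windows with CACGTG and 25.1% of those without it. A clone 4 USF2 peak met 6 of the 8, a clone 5 peak 2, where 51.4% and 39.2% of all coding windows with CACGTG were met. The listed windows that clone 4 USF2 did not meet were those of ALDOA and ALDOC. Summits of clone 4 lay 1 bp from the nearest E-box centre at HK2, 2 bp at LDHA and 6 bp at ARRDC4, but 142 bp from it at PFKFB3.

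The E-box and the reproducible USF2 peaks overlapped only in part at these genes. Of the 6 windows met by a reproducible USF2 peak, those of GAPDH and PDK2 held CACGTG (33.3%) and those of ENO1, RPIA, TPI1 and PGK1 did not, whereas 67.3% of the 1069 coding windows so met held it. At ENO1 the summits lie outside the window on either side, so that its sequence says nothing of the bases under them, and at RPIA they lie past its end. The clone 5 USF2 summits at TPI1 and PGK1 also lie before their windows, and those of clone 4 inside them. The 33.3% and 67.3% count clone 4 intervals, and no clone 5 USF2 peak met the ENO1 or RPIA window. The PLAG1 consensus was in 21 of the 33 genes' windows (63.6%, beside 45.4%), in windows whose median GC content was 68% against 62.3% for all coding windows. The hexamer pair of the carbohydrate response element form was found in 23 of the 15842 coding genes (0.145%), and not in the ARRDC4 window. In the list 1 gene held it, TXNIP, with its first base 88 bp upstream. No USF2 peak of either clone lay at that pair, and CACGTG is absent from both TXNIP windows.

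A further 33 genes of the same pathways, such as isoenzymes, transporters and regulators, lay outside the list. Reproducible PLAG1-S lay at 25 of them (75.8%, beside 52.0% of coding genes) and USF2 at 5 (15.2%, beside 10.3%). Co-bound peaks lay at the same 5 (beside 9.98%). These were the lactate transporter gene SLC16A1, the genes of pyruvate dehydrogenase phosphatase, PDP1, PDP2 and its regulatory subunit PDPR, and SHPK, which phosphorylates sedoheptulose. PDP1 had the highest USF2 folds of the listed and further genes, 20.1 and 15.6 in clones 4 and 5, with PLAG1-S at 34.4 and 30.1. The highest PLAG1-S folds, 38.4 and 36.5, were at ADPGK, a glucokinase that uses ADP, which had no reproducible USF2 and was named after its values were seen. SLC16A1 had PLAG1-S folds of 25.7 and 22.5 and USF2 folds of 11.5 and 8.92, with its summits 27 and 32 bp from an end of SLC16A1-AS1. PDPR reached 25.6 and 16.1 with USF2 at 7.80 and 6.14, and PDP2 15.3 and 13.1 with USF2 at 6.08 and 5.14. SHPK had 25.6 and 17.0 with USF2 at 15.5 and 7.65, 245 bp from an end of CTNS, the neighboring gene. All 3 of these phosphatase genes were thus co-bound in both clones, as was 1 of the 3 kinases on the list, PDK2. The kinase gene PDK4, among the further genes, was not co-bound.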

How the data were processed

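K562 clones 4 and 5, with Flag-PLAG1-S and USF2 in excess, were profiled by ChIP-seq. The sources name FastQC, cutadapt, HISAT2 2.0.4, SAMtools, MACS2, bedtools and HOMER on hg38. Each immunoprecipitated library was called against the merged inputs, without pooling. The authors deposited 4 peak lists. Their fold column is a ratio to the local background at the summit, their −log10 p and −log10 q columns come from the peak caller, and their score, deposited as a whole number, was not used. The inputs have no list of their own and entered only through the fold. Library depth is not in the lists. The number of peaks depends on the q thresholds, which differ between the factors, and on how well each immunoprecipitation worked.

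The genes, groups, motifs and definitions were chosen with earlier results of these data known. Described with values were all genes with reproducible USF2, the 5 others with the largest clone 4 PLAG1-S fold, those with USF2 in 1 clone, those with no peak, and TXNIP and ARRDC4. The genes with PLAG1-S alone, and the HK2 and LDHA sequences, were added after their values were seen. Gene bodies and promoter windows came from RefSeq (GRCh38.p14). PFKFB2 and SLC2A3 matched no window, and for such genes either gene end served as the start. Strand-specific exons were not used here. Fragments and background were recovered from the fold and −log10 p, accepted within 0.001 of the deposited value. Tested on simulated data, this returned the right number for 100% of 1967 summits. A summit is the highest point of a peak and not a base-level site. Python 3.11.15, numpy 2.4.6, pandas 2.3.3, scipy 1.17.1 and matplotlib 3.10.9 were used. Alternatives covered q thresholds, the union of the clones, each clone alone, overlap rules, distances and motif forms.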

Additional observations from a re-analysis of the deposited data

How the results depend on the processing

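The counts of genes with USF2 depended on requiring both clones and on including weak ones. At −log10 q values of 10 or more in every list, reproducible USF2 remained at 3 genes (5.85% of coding genes), co-bound peaks at 3 and co-bound peaks within 1 kb of a start at 3, each time ENO1, GAPDH and PDK2, beside 5.75% and 4.43% of coding genes for the co-bound counts. With the union of the clones these counts were 21 (27.1% of coding genes), 17 (22.1%) and 15 (15.4%). Leaving out 1 clone gave 7 to 21 genes for USF2, 6 to 16 for co-bound peaks and 6 to 15 for those at a start, the low values from clone 5 alone and the high ones from clone 4 alone, and 28 to 32 for PLAG1-S. The shares of coding genes moved with them, from 13.6% to 25.3%, 11.3% to 20.5%, 8% to 14.4% and 58.3% to 64.0%. Allowing CACGNG in place of CACGTG raised the promoter count from 8 to 18, beside 42% of coding genes.

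Under the remaining alternatives (other overlap rules, distances, summits, gene margins and a shorter promoter) each count stayed within 1.5 times its value. A 50% reciprocal overlap left out GAPDH, whose clone 4 USF2 interval is 843 bp wide and that of clone 5 295 bp, and summits within 100 bp left out RPIA. The number of lists with a peak was the same for 30 genes with the gene body alone and for 33 with 10 kb, and fell for 22 with a −log10 q of at least 10. No result comes from a test, so no paired test was made. Each clone was counted alone above. Weak USF2 peaks of 14 to 30 fragments lie near what these lists can show.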
